A study of Mus musculus with 4 samples.

Results

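The AP-1 family transcription factors are described here in splenic CD4+ T cells, from the 10 genes of a fixed list matched by gene symbol: *Fos*, *Fosb*, *Fosl1*, *Fosl2*, *Jun*, *Junb*, *Jund*, *Batf*, *Batf3* and *Atf7*. All 10 were among the 55367 gene symbols counted in each library, and 9 of them, all but *Batf3*, were among the 12403 genes that passed the filter on low counts. The edgeR quasi-likelihood test between the genotype labels was passed at an adjusted p under 0.05 by 4.30% of all tested genes. Of the 9, 0 passed it, with adjusted p-values from 0.216 to 0.746. That does not show equal levels, since the 95% intervals of the fold reached from 0.498 to 0.998 for *Fos* and from 0.942 to 2.33 for *Jun*. The libraries of the labels did not overlap for 5 of the 9, which is 55.6% and near the 50.3% of all tested genes. *Jun* and *Junb* were higher in both libraries labelled cKO, and *Fos*, *Fosb* and *Jund* lower in both. For *Jund* the labels overlapped once the counts of its antisense gene were added. *Xist* and Y-linked genes differed with the label, so sex and genotype label cannot be told apart.

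RNA was sequenced from sorted CD4+ T cells of C57BL/6 spleens, with 2 libraries carrying the label wild type (WT) and 2 the label conditional knockout of *Satb1* (cKO). The design text of the series names mice with floxed *Satb1* (*Satb1* F/F) and either ThPOK-cre or E8I-cre. The study used ThPOK-cre, which acts from commitment to the CD4 lineage onward, for its CD4+ T cells, so other cells of these mice keep *Satb1*. Whether the WT mice carried Cre or the floxed allele is not given in the sources used here. The study calls both libraries of a label individual biological replicates. The p-values set the difference between labels against the spread between these libraries, which edgeR shares across genes.

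AP-1 is a dimer of basic leucine zipper (bZIP) proteins, formed by a FOS protein with a JUN protein or by JUN proteins with each other, and BATF and ATF proteins also pair with JUN proteins. In T cells the signal of the antigen receptor reaches AP-1 through MAP kinases, and AP-1 binds DNA together with NFAT or IRF4 at genes of cytokines and effector functions. Many FOS and JUN genes are immediate early genes, which are transcribed within minutes of a stimulus and whose mRNAs are short-lived.

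Promoter windows are shown for *Fos*, *Jun* and *Junb*, to show where the letters of general promoter elements stand in 3 of the FOS and JUN genes. Each window holds the 120 bases before the RefSeq start of the gene on GRCm38.p6, 5′ to 3′ on the strand of the gene. The capitals mark matches to the motifs searched, which are spelled out after the windows. The windows lie at chr12:85473770-85473889 (plus strand) for *Fos*, chr4:95052223-95052342 (minus strand) for *Jun* and chr8:84978749-84978868 (minus strand) for *Junb*.
Fos: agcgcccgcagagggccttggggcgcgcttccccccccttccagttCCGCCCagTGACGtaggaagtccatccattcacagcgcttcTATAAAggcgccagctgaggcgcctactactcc
Jun: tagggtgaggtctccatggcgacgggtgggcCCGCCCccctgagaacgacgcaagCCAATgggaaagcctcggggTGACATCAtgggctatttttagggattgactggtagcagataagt
Junb: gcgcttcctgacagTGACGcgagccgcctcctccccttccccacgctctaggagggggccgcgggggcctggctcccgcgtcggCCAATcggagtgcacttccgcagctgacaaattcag

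Motifs were counted on both strands in windows from 250 bases before to 50 bases after the start, for 32851 RefSeq promoters that included 9 members. *Fosl1* had no entry. The TRE, TGACTCA or TGAGTCA, is the classical AP-1 site, and these letters were in 0 of the 9 member windows and in 5.20% of all windows. The full CRE, TGACGTCA, was also in 0 of the 9, against 1.79% of all windows. Its core, TGACG or CGTCA, which every full CRE contains, was in the windows of *Batf*, *Fos*, *Fosb* and *Junb*, against 20.8% of all windows. In *Fos* it began 66 and 129 bases before the start.

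The variant TGACATCA or TGATGTCA was found in *Jun*, 45 bases before the start, and in 3.62% of all windows. The TATA box motif, TATAAA or TTTATA, stood 33 bases before the start of *Fos* and at the RefSeq start of *Junb*, which lies 30 bases upstream of its GENCODE start, against 13.6% of all windows. CCAAT or ATTGG was in *Jun* and *Junb*, against 37.4%, and GGGCGG or CCGCCC was in 7 of the 9 member windows, against 35.7%. These matches describe letters and were not tested as sites of binding.

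The libraries held 4495902 to 6555699 gene counts, and mitochondrial transcripts took 1.69% to 2.40% of them. *Satb1* overlapped between the labels (edgeR adjusted p 0.877), with 868.3 and 983.6 counts per 1000000 gene counts (CPM) in WT and 944.8 and 847.3 CPM in cKO. A count over the whole gene need not show the loss of an exon, and which exons the flox removes was not analysed here. *Xist* had 5447 and 4235 counts in WT but 9 and 6 in cKO, whereas the Y-linked genes *Ddx3y*, *Eif2s3y*, *Kdm5d* and *Uty* had 0 or 1 counts in WT and 138 to 597 in cKO. Sex and genotype label therefore cannot be told apart, and every direction below is between libraries labelled WT and cKO. *Cd4* was at 1183 to 1279 CPM in all 4 libraries, and of 7 T cell markers tested edgeR called 0 (1 at an unadjusted p under 0.05, 0 by DESeq2). Of the marker lists for other states and cell types, 4 of 7 Treg markers were called higher (*Foxp3* 3.62-fold), 4 of 6 CD8 T and NK markers lower, and 2 of 6 B cell and 4 of 9 myeloid markers higher. These calls depended on which library was left out. The log2 fold change of *Foxp3* was 1.62 without cKO 2 and 2.05 without cKO 1. That of *Ctla4*, another called Treg marker, was 0.44 without WT 2 and 0.75 without WT 1. For *Klrd1*, a CD8 T and NK marker, it was -2.25 without cKO 2 and -3.79 without cKO 1. Without cKO 1 and without cKO 2 it was 0.91 and 2.21 for the B cell marker *Cd74*, and 1.90 and 3.25 for the myeloid marker *Lyz2*. Of 7 naive T markers 1 was called higher and 2 lower, of 9 activated and memory T markers 1 was called in each direction, and of 5 erythroid markers 0 were called or had an unadjusted p under 0.05. Their part in the AP-1 values was not tested, and in bulk RNA fewer cells of a type and less RNA per cell cannot be told apart.

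Over all tested genes 4.30% were called at an adjusted p under 0.05 by edgeR, 2.35% higher and 1.95% lower under the cKO label. Of the 9 tested members 0 were called. At an unadjusted p under 0.05 there were 3 members, *Fos*, *Junb* and *Jund*, where 19.1% of all genes passed. DESeq2 and the likelihood ratio test of edgeR also called 0 members. They called 1.66% of 23880 genes and 8.84% of 12403 genes. The libraries of the labels did not overlap for 5 members, which is 55.6% of those tested and near the 50.3% of all tested genes. Of these 5, *Jun* and *Junb* lay higher and *Fos*, *Fosb* and *Jund* lower in both libraries labelled cKO, and *Jund* leaves the 5 when its antisense gene is added. The median log2 fold change was 0.10 over the tested members and -0.0015 over all tested genes, and the median of its absolute value was 0.36 and 0.19. With 2 libraries against 2, exact permutation of the labels reaches a two-sided p of 0.333 at the lowest, so each p rests on the spread that edgeR shares across genes.

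**Figure D1:**
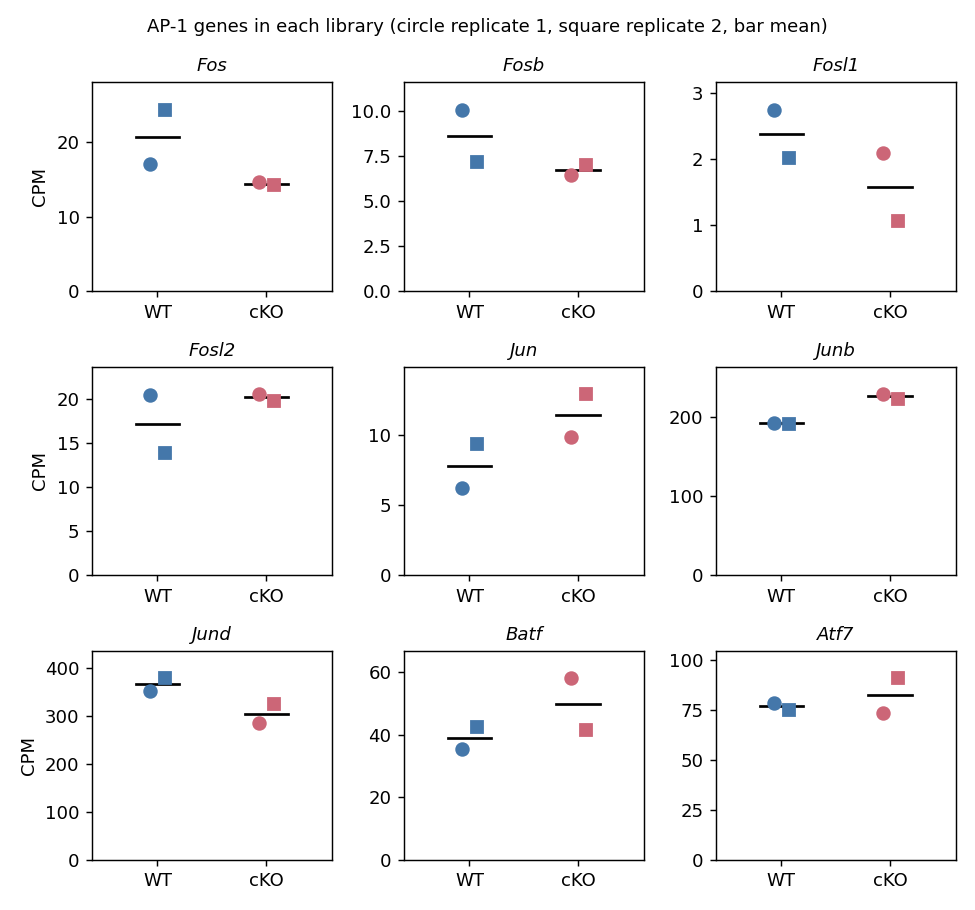
CPM (y axis, from 0, a scale for each panel) of the 9 tested AP-1 genes in the libraries labelled WT and cKO. Circles are replicate 1, squares replicate 2 and bars the mean of the 2 libraries. The labels are separated for Fos, Fosb, Jun, Junb and Jund and overlap for Fosl1, Fosl2, Batf and Atf7.

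Levels differed far more between the genes than between the labels. Per kilobase of merged exon, *Jund* was the highest, at 170.7 to 226.6 CPM over the 4 libraries, followed by *Junb* at 83.4 to 99.9 CPM and *Batf* at 25.2 to 41.3 CPM. Each of these 3 lay above the next gene in every library. *Fos* (6.05 to 10.4 CPM per kilobase) and *Atf7* (6.69 to 8.28) came next, and their ranges overlapped. Below them were *Jun* (1.97 to 4.07), *Fosl2* (1.44 to 2.13), *Fosb* (1.04 to 1.62) and *Fosl1* (0.523 to 1.35), where each gene overlapped its neighbour. *Batf3* stood last, at 0.140 CPM per kilobase at most.

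On the same scale JUN genes made up 86.4% ± 0.683 (SD, n = 2) of the summed AP-1 level in WT and 84.2% ± 2.65 in cKO. BATF genes took 7.87% ± 0.685 and 10.5% ± 2.73, FOS genes 3.73% ± 0.151 and 2.99% ± 0.207, and *Atf7* 1.98% ± 0.153 and 2.22% ± 0.286. On this scale the order in each of the 4 libraries was JUN, BATF, FOS and ATF, and the JUN share was lowest in cKO 1, at 82.4%, where the BATF share was highest, at 12.5%. JUN led under each length used, but the order below it did not hold without division by length, where *Atf7* took 10.5% in WT and 11.5% in cKO, FOS 6.71% and 6.00%, and BATF 5.35% and 6.99%. In an alternative added after seeing the data, bases shared with another gene were left out of the length while all counts were kept. BATF then took 4.59% and 6.5%. That division suits only counts that hold no reads from the shared bases, which is not known here.

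**Figure D2:**
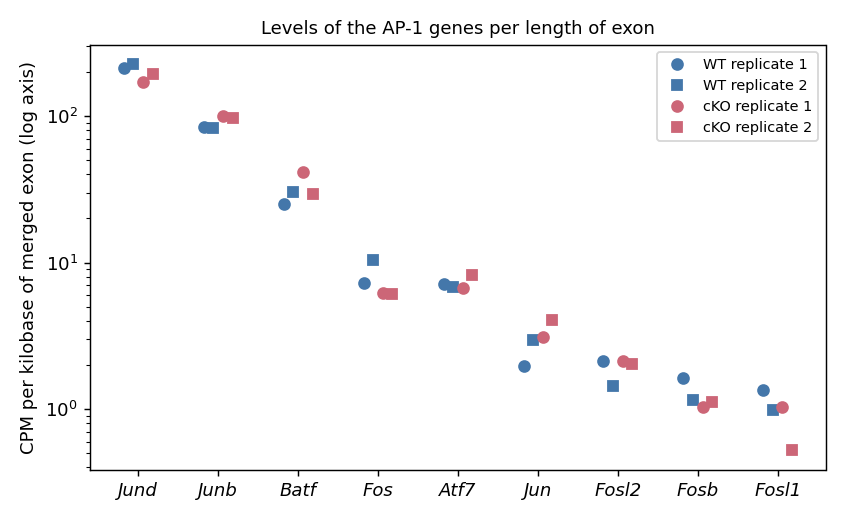
CPM per kilobase of merged exon (log axis) of 9 AP-1 genes, ordered by level, with a point for each library. Batf3, with libraries at 0, is not drawn. Jund, Junb and Batf are separated from one another in all 4 libraries, and the genes from Jun to Fosl1 run into each other.

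The FOS genes encode partners that bind DNA only when paired, mostly with JUN proteins. *Fos*, at chr12:85473890-85477273 on GRCm38 with 4 exon blocks, is the founding immediate early gene of the family. It had 112 and 109 counts in WT and 77 and 67 in cKO, or 17.1 and 24.4 CPM against 14.7 and 14.2 CPM. Both libraries labelled cKO lay below both labelled WT, by a gap of 2.46 CPM where the WT libraries themselves were 7.29 CPM apart. The log2 fold change was -0.50 (SE 0.22, 95% interval of the fold 0.498 to 0.998), with an adjusted p of 0.260 in edgeR and an unadjusted p of 0.0489.

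*Fosb*, a close relative of *Fos* (chr7:19302696-19310051), had 66 and 32 counts in WT against 34 and 33 in cKO. Its values of 10.1 and 7.17 CPM in WT and 6.48 and 7.02 CPM in cKO did not overlap, but the gap of 0.155 CPM was small beside the 2.93 CPM between the WT libraries. This gave a log2 fold change of -0.38 (SE 0.28), with an adjusted p of 0.527 in edgeR. *Fosl1*, which encodes FRA-1 (chr19:5447547-5455946), was near the lower end of what these libraries count, with 18 and 9 counts in WT and 11 and 5 in cKO. Its CPM of 2.75, 2.02, 2.1 and 1.06 overlapped between labels, and its log2 fold change of -0.60 had the widest error of the members (SE 0.49, edgeR adjusted p 0.566). Of its exon bases 57.2% overlap *Ccdc85b* on the opposite strand, which had 125 to 171 counts per library, and without strand the reads of the 2 genes cannot be told apart.

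*Fosl2*, which encodes FRA-2 (chr5:32135801-32157842), went the other way in its mean. It had 20.5 and 13.9 CPM in WT and 20.6 and 19.8 CPM in cKO, where WT 1 lay between the cKO libraries and WT 2 alone was low. The log2 fold change was 0.21 (SE 0.22, edgeR adjusted p 0.659), and without WT 2 it was -0.0262. So 3 FOS genes had a negative and 1 a positive fold change, and 0 of the 4 were called.

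The JUN genes encode proteins that can pair among themselves as well as with FOS and BATF. *Jun*, a gene of a single exon block at chr4:95049034-95052222, had 41 and 42 counts in WT and 52 and 61 in cKO. At 6.27 and 9.41 CPM in WT and 9.91 and 12.97 CPM in cKO, the labels were 0.499 CPM apart, less than the 3.14 and 3.06 CPM between libraries of 1 label. Its log2 fold change of 0.57 (SE 0.29, 95% interval of the fold 0.942 to 2.33) did not pass the test (edgeR adjusted p 0.332). Its antisense neighbour *Junos*, which shares 7.28% of the *Jun* exon bases, had 3 to 7 counts.

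*Junb*, a JUN gene with roles in T helper cell differentiation, lies at chr8:84974484-84978718. It had 1265 and 857 counts in WT and 1206 and 1050 in cKO, or 193.5 and 192.0 CPM against 229.8 and 223.2 CPM. The WT libraries were 1.5 CPM apart and the cKO libraries 6.6 CPM, while the gap between labels was 29.7 CPM, the clearest separation of the members relative to the spread. The log2 fold change was 0.23 (SE 0.09, 95% interval of the fold 1.02 to 1.36), with an adjusted p of 0.216 and an unadjusted p of 0.0333 in edgeR.

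*Jund*, the member with the most counts, encodes a JUN protein that is made in most resting cells. From 1 exon block at chr8:70698949-70700616 it had 2302 and 1687 counts in WT and 1494 and 1520 in cKO. The values of 352.1 and 378.0 CPM in WT lay above the 284.7 and 323.1 CPM in cKO, with a gap of 29.0 CPM beside 25.9 and 38.4 CPM within the labels. The log2 fold change was -0.26 (SE 0.11, 95% interval of the fold 0.705 to 0.984), with an adjusted p of 0.221 and an unadjusted p of 0.0347 in edgeR.

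A limit applies to the *Jund* counts. Of its exon bases 52.6% overlap the antisense gene *Gm11175*, which had 2429 and 1910 counts in WT and 1448 and 1946 in cKO, and a stranded library is not stated in the labels. With the counts of both genes added, chosen after seeing the data, the sums were 723.6 and 805.9 CPM in WT and 560.6 and 736.7 CPM in cKO. The labels then overlapped, and the log2 fold change was -0.24 (SE 0.14, edgeR adjusted p 0.422).

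**Figure D3:**
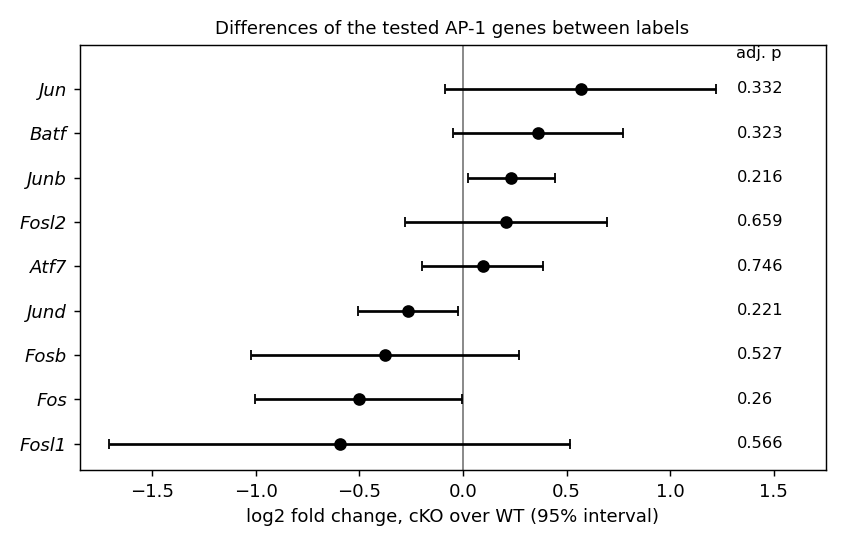
Log2 fold change of the libraries labelled cKO over those labelled WT (x axis) for the 9 tested AP-1 genes, with 95% intervals and the edgeR adjusted p at the right. The intervals of Fos, Junb and Jund do not reach 0 before adjustment, and no adjusted p is under 0.216.

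*Batf* (chr12:85686669-85709087) encodes a short bZIP protein that pairs with JUN proteins and binds with IRF4 at composite elements. It had 232 and 190 counts in WT and 305 and 195 in cKO, or 35.5 and 42.6 CPM against 58.1 and 41.5 CPM. The highest value was that of cKO 1, and cKO 2 lay between the WT libraries. For *Batf* the log2 fold change was 0.36 (SE 0.18, 95% interval of the fold 0.967 to 1.71, edgeR adjusted p 0.323). In the same libraries the summed level of 10 B cell markers was 44.5 and 55.6 CPM in WT and 230.2 and 89.3 CPM in cKO, and that of 10 myeloid markers was 32.3 and 39.0 CPM against 107.5 and 65.1 CPM. Antibodies to B220, a B cell surface protein, are among those the study lists for lineage gating in flow cytometry, and the gate of this sort is not given in the sources used here. The part of either list in the *Batf* value was not tested.

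*Batf3*, known for its need in a class of dendritic cells, had 0 and 1 counts in WT and 1 and 0 in cKO. A library at or under 3 counts, which is 0.458 to 0.667 CPM here, was taken as at the floor, so no fold is given. *Atf7* (chr15:102525946-102625464), a bZIP gene of the ATF2 group, had 78.6 and 75.1 CPM in WT and 73.6 and 91.0 CPM in cKO. Its WT libraries lay between the cKO libraries, and its log2 fold change was 0.10 (SE 0.13, edgeR adjusted p 0.746). Its interval of the fold, 0.872 to 1.31, was the narrowest of the 4 members whose libraries overlapped.

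The calls on members depended on which library was left out. Without cKO 2, edgeR called *Batf* (log2 fold change 0.59, adjusted p 0.00429), *Junb* (0.26, adjusted p 0.0483) and *Jund* (-0.35, adjusted p 0.00304). That fit called 13.8% of all genes, and it takes the lone cKO library to vary as the WT libraries do. On leaving out WT 1, WT 2 or cKO 1 in turn, 0 members were called. The value of *Batf* rested most on cKO 1, without which its log2 fold change was 0.10 (adjusted p 0.752). That of *Fos* ran from -0.75 without WT 1 to -0.25 without WT 2, and that of *Fosb* from -0.59 without WT 2 to -0.08 without WT 1. *Jun* ran from 0.28 without WT 1 to 0.86 without WT 2, and *Fosl1* from -1.18 without cKO 1 to -0.21 without cKO 2.

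The members can also be set against each other within a library, where depth does not enter. These pairs were chosen after their values were seen, so the shares are a description. Of the counts of *Fos* and *Jun* together, *Fos* took 73.2% (exact binomial 95% interval 65.5 to 80) in WT 1 and 72.2% (64.3 to 79.2) in WT 2. In cKO 1 it took 59.7% (50.7 to 68.2) and in cKO 2 52.3% (43.3 to 61.2). The ratio of *Fos* to *Jun* counts was thus 2.73 and 2.60 in WT and 1.48 and 1.10 in cKO, and the intervals of WT 1 and WT 2 overlapped that of cKO 1 but not that of cKO 2.

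*Junb* took 35.5% and 33.7% of the counts of *Junb* and *Jund* in WT and 44.7% and 40.9% in cKO, with no overlap of the intervals between labels. With the antisense counts of *Gm11175* added to *Jund*, an alternative chosen after seeing the data, it took 21.1% (20.1 to 22.2) and 19.2% (18.1 to 20.4) in WT and 29.1% (27.7 to 30.5) and 23.3% (22 to 24.5) in cKO, and the intervals of WT 1 and cKO 2 met. *Fosb* took 33% and 34% of the counts of *Fosb* and *Fosl2* in WT and 23.9% and 26.2% in cKO, with intervals that overlapped. All these intervals cover counting error only, since the reads carry no molecular identifiers and may repeat a molecule.

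**Figure D4:**
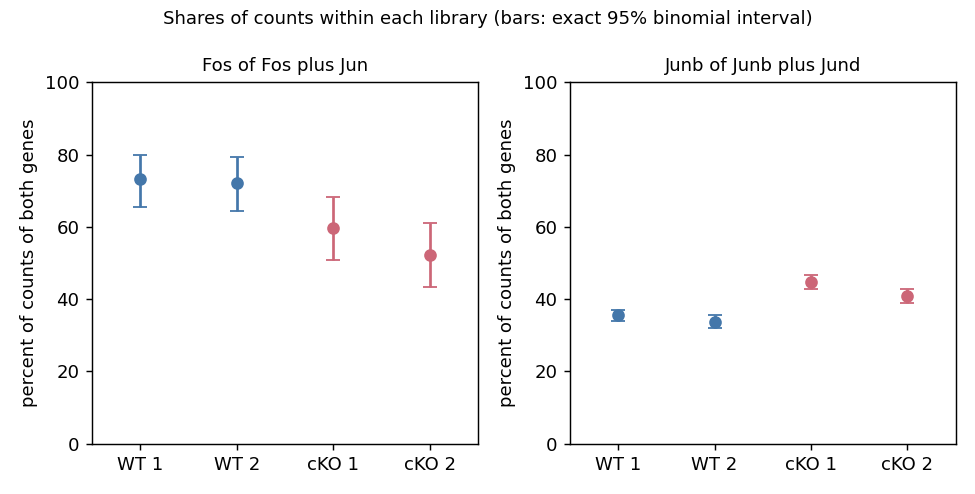
Share of Fos in the counts of Fos plus Jun (left) and of Junb in the counts of Junb plus Jund (right), in percent, for each library, with exact 95% binomial intervals. Fos takes 72.2% to 73.2% in WT and 52.3% to 59.7% in cKO, and Junb 33.7% to 35.5% in WT and 40.9% to 44.7% in cKO.

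Genes with the most similar pattern over the 4 libraries were sought by the root mean square difference of centred log2 CPM among genes with an average log2 CPM of at least 5. For *Junb* they were *Limd1* (0.0073), *Arfgap1* (0.0081) and *Il6st* (0.0096), and for *Batf* *Slc25a23* (0.0344), *Sdhc* (0.0452) and *Neb* (0.052). For *Fos* they were *Gramd3* (0.0677), *Rpa2* (0.0684) and *Lars2* (0.0731), and for *Jun* *Ints6l* (0.0846), *Malat1* (0.0847) and *Castor2* (0.0887). There were 6067 or 6068 candidates for each member, and over 4 libraries such likeness is a description.

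The genes around AP-1 were read in the same fit, which called 4.30% of all tested genes, with 19.1% at an unadjusted p under 0.05. Of 20 tested bZIP factors outside the list edgeR called 0 (3 at an unadjusted p under 0.05, 0 by DESeq2 and 1 by the likelihood ratio test), with a median log2 fold change of 0.06. The largest values were those of *Crem*, a cAMP-responsive factor (0.56, edgeR adjusted p 0.162), and *Maf*, a factor of T helper and Treg cells (0.53, adjusted p 0.0673). Of 10 NFAT and IRF partners 0 were called (4 at an unadjusted p under 0.05, 1 by DESeq2 and 2 by the likelihood ratio test), with a median of 0.18. *Irf4*, the partner of *Batf*, had 41.3 and 33.8 CPM in WT and 83.5 and 53.4 CPM in cKO, highest in cKO 1 as *Batf* was, with a log2 fold change of 0.86 (edgeR adjusted p 0.0564, and 0.0231 by DESeq2). The summed level of 7 Treg markers was 479.2 and 405.1 CPM in WT and 863.3 and 1086 CPM in cKO, with *Foxp3* taking 405.3 and 546.9 CPM of the latter. The B cell sums are those given beside *Batf*, and the part of either list was not tested. On leaving out a library, the log2 fold change of *Irf4* was 1.02 without WT 1 (adjusted p 0.00359), 0.73 without WT 2 (adjusted p 0.322), 0.49 without cKO 1 (adjusted p 0.0428) and 1.14 without cKO 2 (adjusted p 7.72e-08). *Nfat5* had a log2 fold change of 0.49 (adjusted p 0.0740).

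Upstream of AP-1, 1 of 25 genes of the MAP kinase cascade was called higher and 0 lower (median 0.01), where 4.30% of all tested genes were called. At an unadjusted p under 0.05 in edgeR there were 3 of the 25, against 19.1% of all genes. DESeq2 called 1 and the likelihood ratio test 2. The gene called by edgeR was *Mapk11*, which encodes p38 beta, at 41.6 and 34.3 CPM in WT and 63.7 and 59.9 CPM in cKO (log2 fold change 0.70, edgeR adjusted p 0.0263). *Map3k8* had a log2 fold change of 0.86 but few counts (adjusted p 0.109). Of 14 genes of feedback and mRNA decay, 1 was called higher and 0 lower (median 0.08). At an unadjusted p under 0.05 in edgeR there were 4 of the 14, and DESeq2 and the likelihood ratio test each called 1. *Zfp36l2*, which encodes a protein that binds AU-rich elements of short-lived mRNAs, had 737.9 and 677.8 CPM in WT and 1604 and 1271 CPM in cKO (log2 fold change 1.02, edgeR adjusted p 0.00626), whereas *Zfp36l1* had 0.33 (adjusted p 0.101).

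Of 11 tested AP-1 target genes of T cells, 1 was called in each direction (median 0.27), where 4.30% of all tested genes were called. At an unadjusted p under 0.05 in edgeR there were 5 of the 11, against 19.1% of all genes. DESeq2 and the likelihood ratio test each called 3. *Cd69*, an early activation receptor, was higher at 136.0 and 126.6 CPM in WT against 267.9 and 186.4 CPM in cKO (log2 fold change 0.79, edgeR adjusted p 0.0292), and its log2 fold change was 0.50 without cKO 1 and 1.03 without cKO 2. *Gzmb*, which encodes a protease of cytotoxic granules, was at 62.6 and 54.2 CPM in WT and 3.05 and 5.95 CPM in cKO (log2 fold change -3.72, edgeR adjusted p 0.000127). In the same libraries 4 of 6 CD8 T and NK markers were called lower. The others, *Cd8a* (-0.07, edgeR adjusted p 0.941) and *Klrb1c* (-1.07, adjusted p 0.437), were not called, and the part of this list in the *Gzmb* value was not tested. Of 18 other immediate early genes 2 were called higher and 0 lower (median 0.11), namely *Rgs1* (1.55, edgeR adjusted p 0.00511) and *Tnfaip3* (0.62, adjusted p 0.0134). At an unadjusted p under 0.05 in edgeR there were 7 of the 18, and DESeq2 and the likelihood ratio test each called 3. Without WT 2, *Mapk11*, *Zfp36l2*, *Cd69* and *Tnfaip3* were no longer called, with adjusted p-values of 0.306, 0.113, 0.193 and 0.210 in edgeR. Their log2 fold changes in that fit, which called 180 genes in all, were 0.57, 0.96, 0.74 and 0.56.

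**Figure D5:**
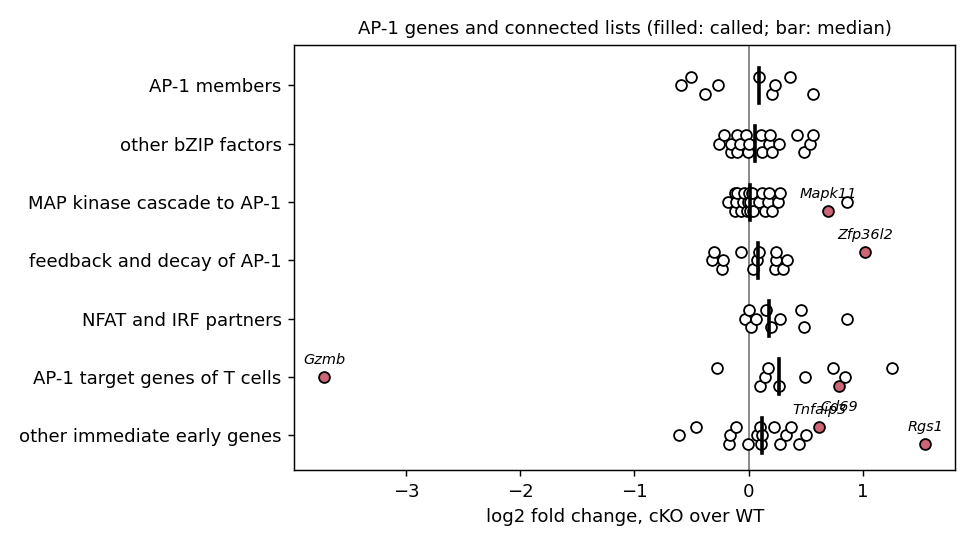
Log2 fold change, cKO over WT, of every tested gene of the AP-1 list and of 6 connected lists (rows), with called genes filled and named and the median of a list as a bar. The medians lie between 0.01 and 0.27, no AP-1 gene is filled, and Gzmb stands far to the left.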

How the data were processed

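Sorted splenic CD4+ T cells were sequenced as 50-base reads with 2 libraries per label, made with the NEBNext Ultra kit per the labels and NEBNext Ultra II per the study's methods. The authors aligned reads with HISAT2 2.1.0 to mm10 and deposited raw counts per gene made with HTSeq, version 0.11.1 in the submitters' processing notes. The annotation and strand setting are not given in the sources used here. HTSeq summary lines were left out of totals, and HTSeq assigned 59.4% to 64.5% of the uniquely aligned reads to no feature. Without the strand setting it is not known how many of these lay on the opposite strand of a gene.

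Counts were tested in edgeR 4.0.16 (R 4.3.3) with filterByExpr, TMM scaling and the two-sided quasi-likelihood test on label, with Benjamini-Hochberg adjustment over 12403 genes and a threshold of 0.05. DESeq2 1.42.0, other scalings and filters, the replicate block, thresholds, thinning and leaving out each library were alternatives. The steps were tested on simulated data. CPM used TMM-scaled gene totals. Exon lengths and overlaps came from GENCODE M21. All members were named. The genes named from each other list, not all of which are printed above, were up to 6 called genes by smallest p. Where fewer than 2 were called, the 2 largest changes were taken. Also named were 3 genes of closest pattern for 4 members, and genes that check label and sex. The members and lists were chosen with earlier results of these data known.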

Additional observations from a re-analysis of the deposited data

How the results depend on the processing

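The count of genes called was 533. It was 1096 with the likelihood ratio test, 1367 with no low-count filter, 153 at an adjusted p under 0.01, 286 with a log2 fold change of 1 or more in size, and 180 to 1790 on leaving out each library (180 without WT 2, 1491 without cKO 1, 1790 without cKO 2). DESeq2 called 396. The replicate numbers are shared by label only (the correlation of deviations of same-numbered libraries was 0.0642), and with the replicate number as a block 1165 genes and 0 members were called.

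The number of members called was 0 under every alternative that kept all 4 libraries and 0 to 3 on leaving out each library. Of 125 alternative values of member fold changes 120 kept direction and side of the threshold, 3 gained a call and 2 reversed, namely Fosl2 at -0.0262 without WT 2 (0.5441 without WT 1) and Atf7 at -0.0631 without cKO 2 (0.2390 without cKO 1). Fosl1 did not pass the filter without WT 1. Of 487 for other named genes 429 kept both, 22 lost and 34 gained a call, and the erythroid markers Hbb-bs and Alas2 reversed without WT 2, ranging from -4.0825 to 0.0044 and from -3.6610 to 0.1334 on leaving out each library. The cause was not tested.

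The JUN share in WT was 82.9% with the longest transcript as length and 77.4% with no length. It was 91.7% with bases shared with another gene left out of the length but all counts kept, an alternative added after seeing the data. In cKO the JUN share was 80.3%, 75.6% and 89.9% under the same 3 lengths. Depth limits Fosl1 and Batf3 most.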
